A study of Homo sapiens with 2 samples.

Results

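Of 1986 IRF1 summits deposited for NB4 cells after 4 hours of all-trans retinoic acid (ATRA), 226 lay in a LINE or SINE, the long and short interspersed repeats that make up much of the human genome. They were chosen by the authors' detailed annotation, which writes a repeat as its name, class and family, and every summit whose class was LINE or SINE was kept. This is 11.4% of the list (95% Wilson interval 10.1 to 12.9). IRF1 is a transcription factor of the interferon response, profiled here by chromatin immunoprecipitation and sequencing (ChIP-seq) in NB4, an established human line of acute promyelocytic leukemia that carries the PML-RARA fusion. The 2 groups were ATRA-treated and control cells, with 1 library each, and the treatment named beside ATRA, also for 4 hours, was the solvent DMSO. Cells of both groups were fixed with formaldehyde and their chromatin was sheared by sonication. Only the summits of the ATRA library were analysed here, so no value below is set against one from control cells. The background of the peak calling is not given in the sources used here. Should it have been the control library, the listed summits are sites with more signal after ATRA, and otherwise they are sites of signal in ATRA-treated cells. With no replicates, no p-values were computed, and intervals cover counting error only.

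LINEs and SINEs are retrotransposons, elements that spread by copying their RNA back into DNA, and nearly all human copies are now broken and immobile. L1 is the LINE family that remained active longest, and its names starting with L1M mark old copies shared among mammals, whereas L1P marks copies of primates. L2, CR1 and MIR are older still, and the end of MIR resembles L2. Alu elements are short, derive from the 7SL RNA and are specific to primates, with AluJ older than AluS and AluS older than AluY. IRF proteins recognise paired GAAA units, as in the interferon-stimulated response element.

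Sequence could be shown for the 2 members that lay inside a promoter window of the RefSeq table of GRCh38.p14, which runs from 250 bases before to 50 bases after each gene's start. The stronger was an intergenic L2b summit at chromosome 2 position 84889008, with a peak score of 93.8 and TRABD2A, a gene of Wnt regulation, as the authors' nearest gene at -7763 bp. In the RefSeq table it lay 38 bp after the start of the non-coding gene LOC105374837. The plus strand of that window, chr2:84888720-84889019, is printed to show what stood at the summit, with the match to the response element core in capitals.
LOC105374837 window: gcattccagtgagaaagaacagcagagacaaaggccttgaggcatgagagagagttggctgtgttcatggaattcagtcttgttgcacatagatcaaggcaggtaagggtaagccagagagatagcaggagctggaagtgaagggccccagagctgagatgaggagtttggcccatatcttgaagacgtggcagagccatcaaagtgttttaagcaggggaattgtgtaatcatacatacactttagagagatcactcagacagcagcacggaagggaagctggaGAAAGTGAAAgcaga
The summit was base 289 of these 300. The match, GAAAGTGAAA, ran from position 84889005 to 84889014, so the summit lay within it. The weaker was an intergenic L2a summit at chromosome 19 position 46404443, with a score of 11.9 and CCDC8 as the nearest gene. It lay at -205 bp from the start of the antisense gene PPP5C-AS1 in the RefSeq table. The first 100 bases of its window on the minus strand, chr19:46404389-46404488, are printed for contrast, with the 11 bases centred on the summit in capitals.
PPP5C-AS1 window: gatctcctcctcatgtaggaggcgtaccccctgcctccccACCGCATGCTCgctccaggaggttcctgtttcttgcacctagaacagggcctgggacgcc
No match to either motif was found in the 300 bases of this window. The motifs searched, on both strands and with overlaps counted, were the response element core, GAAA and GAAA with any 2 bases between them, and the composite element of ETS and IRF factors, GGAA and GAAA with any 2 bases between them. Of all 35116 promoter windows, 3.57% held the former and 2.82% the latter. Among the 302 windows that held a summit of any kind, the shares were 38.7% and 15.2%. How far the L2b repeat itself extends is not given in the list, and a match of letters is a description, not a measured binding site. The sequence at the other members was not analysed here.

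By family, L1 held 91 summits, L2 51, Alu 44, MIR 32 and CR1 7, and RTE-X held 1 (30.7), an L4_A_Mam copy in an intron of MYRIP. LINEs thus made up 150 of the members and SINEs 76. The number of copies of each family in the genome was not used, so these counts are not enrichments. How the authors treated reads that match several places is not given in the sources used here, and repeat copies share sequence.

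**Figure D1:**
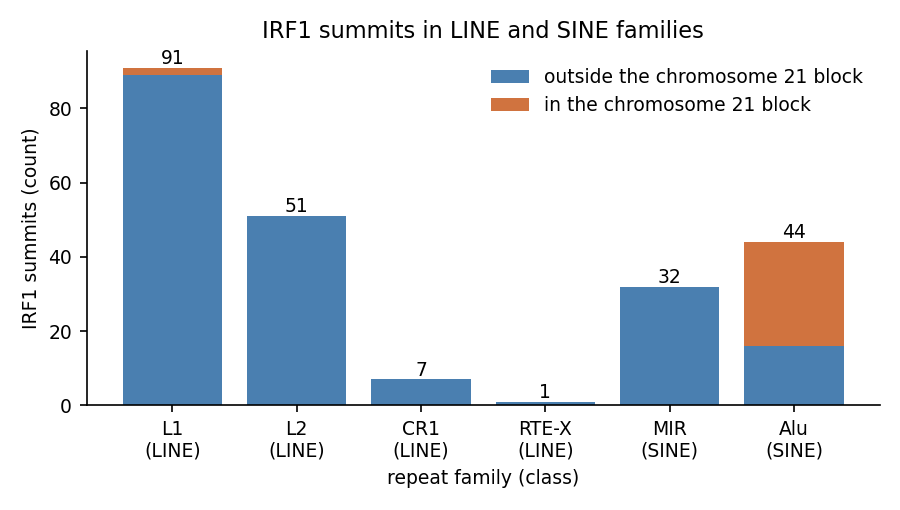
Bars give the number of IRF1 summits (vertical axis, count) in each LINE or SINE family, split by whether they lay in the dense block on chromosome 21. The block holds 28 of the 44 Alu summits, 2 of the 91 L1 summits and none of the other families.

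The Alu count rested on ribosomal DNA. A block of 133 summits on the short arm of chromosome 21, from position 8153380 to 8471377, held 28 of the 44 Alu members and 2 L1 members. These 30 had scores from 8.29 to 36.5, with a median of 17.7. RefSeq places 4 copies of the microRNA gene MIR6724 there, 3 of which are followed by a 45S ribosomal RNA gene, the precursor of the large ribosomal RNAs. In front of each of the 4 copies an AluSp summit was called, at -1435, -1393, -1434 and -1367 bp from the start of the copy, with scores of 18.4, 19.4, 20.4 and 20.0. Behind copies 1, 3 and 4 an AluSz6 summit lay at 17435, 17386 and 17401 bp, and its scores were 18.5, 17.8 and 18.7. The scores within each of these sets were close, but other sets differed more. AluSz summits at 19425, 19413 and 19371 bp behind those 3 copies scored 14.0, 17.6 and 20.1. AluJr summits at 20172, 20166 and 20168 bp scored 10.2, 20.2 and 11.8, so the same place in another copy could have a far lower score. In all, 23 of the 30 lay within 100 bp of the offset of a summit of the same repeat name in another copy. They lie in copies of the same repeated unit and may not be separate sites, although the counts and shares above include each of them. The highest score among them, 36.5, was that of an AluSz summit 19567 bp behind copy 4, whose counterpart at 19578 bp behind copy 1 scored 20.7. Outside the block 196 of 1853 summits were members, and the counts below refer to these 196 unless stated otherwise.

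**Figure D2:**
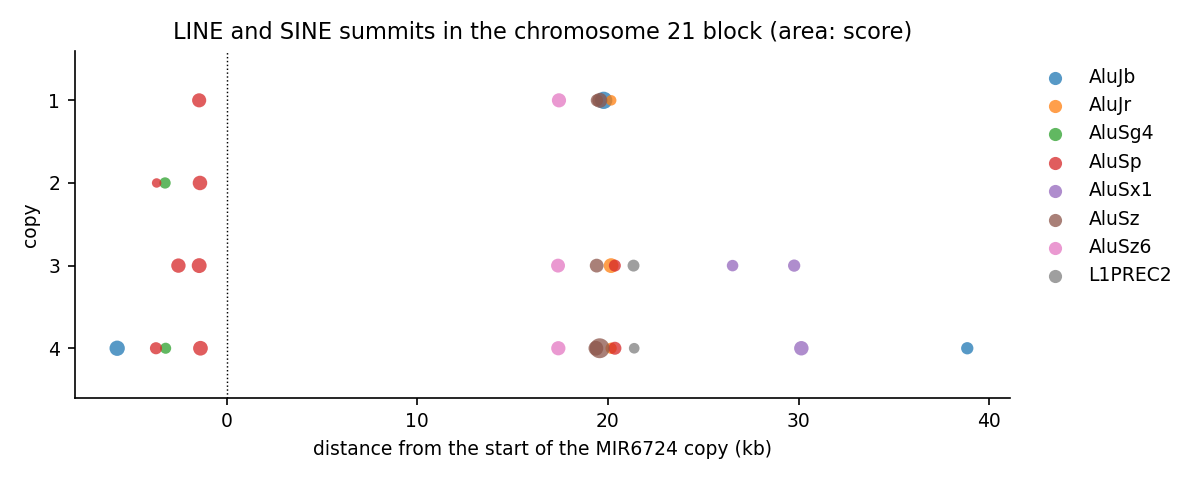
Each point is a LINE or SINE summit of the chromosome 21 block, placed by its distance in kb from the start of a MIR6724 copy (horizontal axis) and by copy, numbered along the chromosome (vertical axis), with the area of the point proportional to the score. Colour marks the repeat name, and 23 of the 30 points have a partner of their colour within 100 bp of the same distance in another copy, as for AluSp at -1367 to -1435 bp.

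Peak scores of the 196 members outside the block spanned 10.4 to 203. Their median was 25.2 and their quartiles were 18.3 and 36.7. The score is the authors' own value with no stated unit, and is used only to rank summits within this list. The median was 27.2 for the 216 summits in LTR and DNA transposons and 24.8 for the 800 intronic and intergenic summits with no repeat name. The exact binomial intervals of these medians, 22.1 to 27.0, 24.6 to 29.6 and 23.2 to 26.3, overlapped. Few members were among the strongest summits. Of the 100 highest scores, 5.04% of the list, 3 were LINE summits and none a SINE summit (1.53% of the 196 members, Wilson interval 0.522 to 4.40). LTR and DNA transposons held 10 of the 100 and summits with no repeat name 25. This is 4.63% (2.53 to 8.31) and 3.12% (2.13 to 4.57) of those outside the block. The interval of the members overlapped both.

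L2 held the highest members and L1 the most. The 51 L2 scores ran from 11.7 to 203 with a median of 25.7, and the 89 L1 scores from 10.4 to 143 with a median of 22.9. MIR, with 32 summits, ran from 13.1 to 107 with a median of 25.0. The 16 Alu summits outside the block ran from 12.7 to 53.9 with a median of 24.9. CR1 had 7 summits from 15.0 to 113 with a median of 23.9. The families overlapped over most of their range, and the intervals of the medians overlapped for every pair, for example 20.0 to 30.0 for L1 and 21.7 to 29.6 for L2. Scores over 50 were found at 16 L1, 8 L2, 7 MIR and 2 CR1 summits and at 1 Alu summit.

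**Figure D3:**
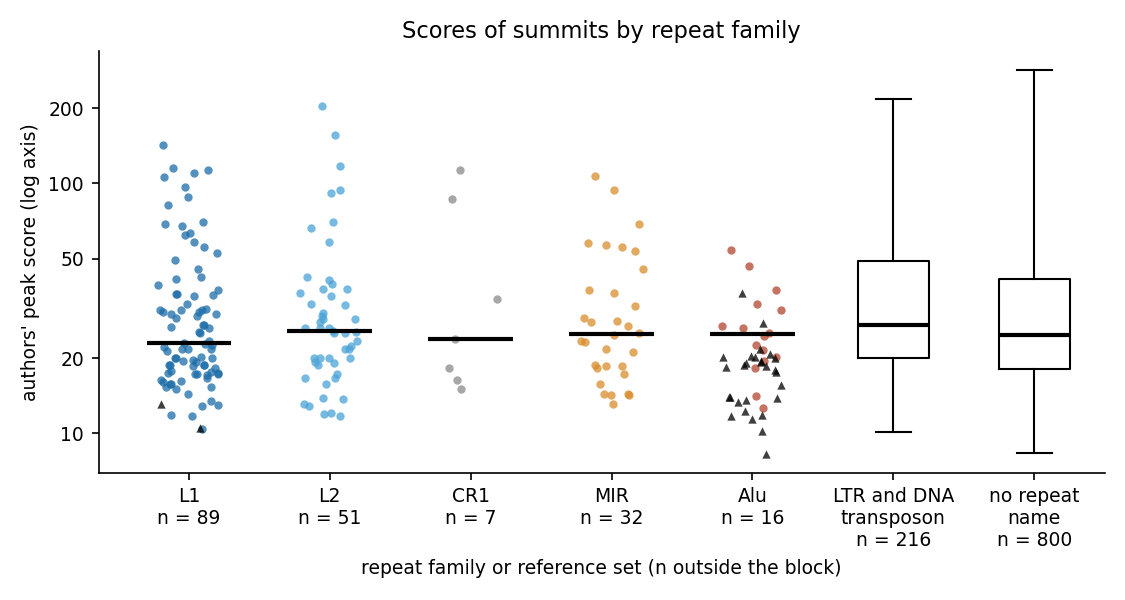
Points give the authors' peak score (vertical log axis, no unit) of each summit in 5 families (the single RTE-X summit is not drawn), circles outside and black triangles in the chromosome 21 block, with the median outside the block as a bar. Boxes show quartiles and full range for the 2 reference sets. The medians of all 5 families lie between 22.9 and 25.7, while the highest L2 point reaches 203 and the highest Alu point 53.9.

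The strongest member was an L2c summit with a score of 203 at chromosome 15 position 70141295, the 27th highest of the whole list. It was intergenic, 43378 bp upstream of TLE3, a Groucho-type transcriptional corepressor, and a weak L2 summit (12.9) at position 70308430 also had TLE3 as its nearest gene. An L2 summit with a score of 156 lay at chromosome 2 position 148553169, 91822 bp upstream of EPC2, an enhancer of polycomb homologue. ENPP6, a choline phosphodiesterase gene, was the list's nearest gene, at -50175 bp, to an L1M6 summit (143) at chromosome 4 position 184268136. For this summit the RefSeq table has a closer start, that of LOC105377584 at 2158 bp. The summits with scores of 203, 156 and 143 were the 3 members among the 100 highest summits, and all were intergenic.

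Next in rank were LINE summits whose nearest genes in the list were of varied function, some of them far away. The receptor phosphatase gene PTPRO had an L2b summit (118) in intron 12 of 26 at chromosome 12 position 15534472. The integrin gene ITGA6 was the list's nearest gene, at -87676 bp, to an intergenic HAL1 summit (115) at chromosome 2 position 172339678. For this summit the RefSeq table has a closer start, that of LOC105373742 at -9096 bp. KIAA0513 had an L3 summit of the CR1 family (113) in intron 1 of 11 at chromosome 16 position 85055484. The cell cycle gene CKS2 was nearest, at -33533 bp, to an intergenic L1MA8 summit (113) at chromosome 9 position 89277662. PCGF3, a Polycomb ring finger gene, was nearest, at -6244 bp, to an intergenic L1MC5 summit (110.0) at chromosome 4 position 699540. The sphingomyelinase gene ENPP7 had an L1ME4b summit (106) in intron 1 of 5 at chromosome 17 position 79733258. The tenth LINE summit was the L1MB2 copy in NOD1 described below.

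Among SINEs the 6 highest were all MIR copies and all intronic. The highest, a MIRc summit with a score of 107, lay in the non-coding gene FLJ40288 at chromosome 7 position 132666572. A MIR3 summit followed (94.0), in intron 5 of 8 of IRF2. The others were MIRc summits in LRCH3 (68.6) and in RAB27A (57.8), a GTPase gene of vesicle secretion, a MIRb summit in the transglutaminase gene TGM5 (56.6) and a MIR summit in intron 33 of 39 of RALGAPA2 (55.5), for which the list gives INSM1 as the nearest gene. The highest Alu summit was an AluJo copy (53.9) at chromosome 7 position 99248482, nearest to MYH16. Outside the block the 7 AluJ summits ran from 25.2 to 53.9 and the 9 AluS summits from 12.7 to 32.8. No AluY summit was listed, in or outside the block.

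The members carried 64 repeat names, of which 27 occurred once and 18 had 4 or more summits. No name had more members than L1MB2, whose 19 summits lay on 13 chromosomes and outside the block. Its scores ran from 11.8 to 96.5 with a median of 20.0, and 3 exceeded 50. These were in introns of NOD1 (96.5), of the non-coding gene DLEU1 (58.1) and of the transporter gene SLCO3A1 (55.5). Of the 19, 12 were intronic and 7 intergenic. The related names L1MB3 and L1MB7 had 6 summits each, with medians of 19.0 and 19.3. Their highest summits were those nearest to EPAS1, a hypoxia-inducible factor gene (30.7), and in CPLANE1, a gene of cilium formation (45.5). All L1MB names together gave 39 of the 91 L1 summits (42.9%), and 83 of the 91 carried an L1M name. Copies of the L1P names numbered 5, of which 2 were in the block, and no L1PA or L1HS copy, the youngest L1s, was listed.

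All L2 summits fell under 4 names. L2a had 17 summits (11.9 to 58.5, median 25.3), L2 14 (12.9 to 156, median 25.3), L2c 11 (11.7 to 203, median 28.0) and L2b 9 (13.1 to 118, median 26.4). The highest L2a summit lay 86313 bp upstream of the list's nearest gene, the non-coding MGC27382. The RefSeq table has a closer start for it, that of LOC107984997 at 3313 bp. By the distances in the list, L2 copies without a letter had 1 of 14 within 10 kb of a transcription start site (TSS). L2a had 5 of 17, L2b 3 of 9 and L2c 4 of 11. Farther than 100 kb were 5 L2, 2 L2a and 1 L2b summits and none of L2c. These counts are small and depend on the starts used. For the far L2 summits assigned to NPY and TLE3, the RefSeq table has starts at 17602 and -10544 bp. By that table, those assigned to LINC02466, CFAP54 and LOC102546299 stayed beyond 100 kb. Of the MIR names, MIR and MIR3 had 9 summits each, MIRc 8 and MIRb 5, with medians of 28.0, 25.3, 25.8 and 18.3. MIR3 was intronic at 7 of 9 summits and MIR at 3 of 9. L3, the main CR1 name, had 5 summits from 15.0 to 113. AluSp had 11 summits, but 9 were in the block, and the highest was the copy in GALM, a galactose metabolism gene (21.5). AluJo had 4, all outside the block (26.4 to 53.9). AluSz had 5 of 6 summits in the block, and AluSx1, AluJb and AluJr had 3 of 4 each. The highest AluJb summit (27.6, position 8225095) and the highest AluSx1 summit (19.3, position 8462676) were both in the block. The AluJr copy outside it lay in RAI14 (37.6).

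**Figure D4:**
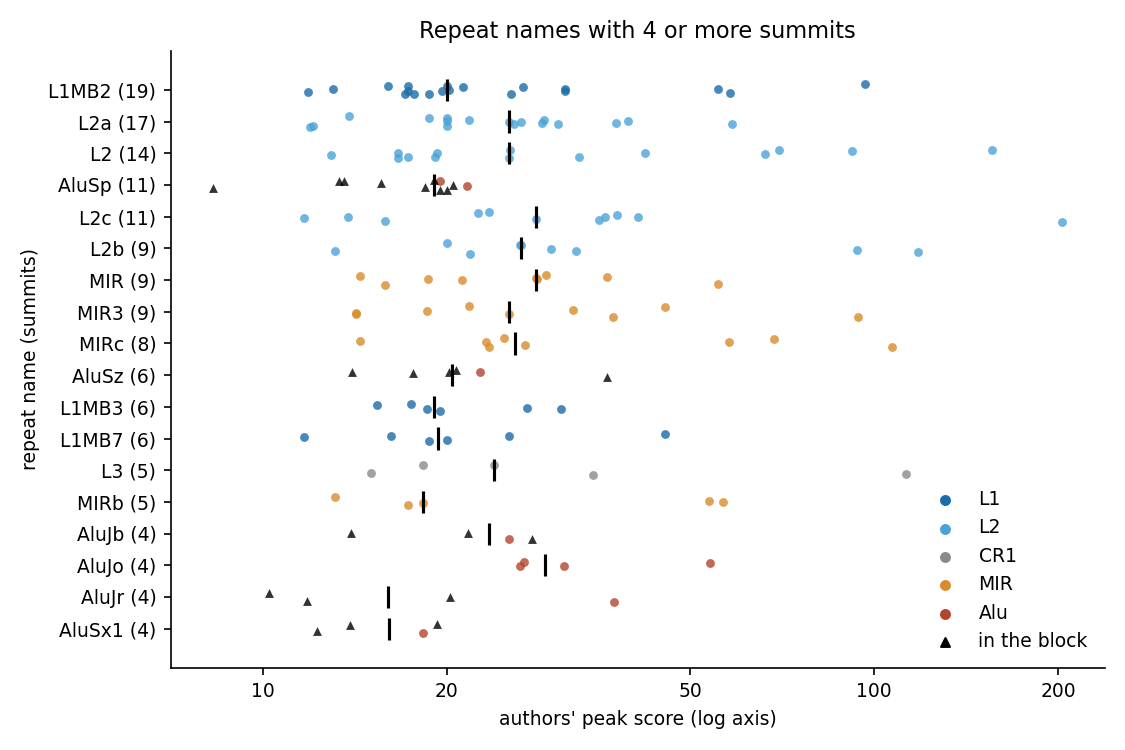
Points give the authors' peak score (horizontal log axis, no unit) of each summit for the 18 repeat names with 4 or more members, coloured by family, with black triangles for summits in the chromosome 21 block and a bar at the median of all. L1MB2 has the most points and a median of 20.0, and L2c reaches the highest value of 203.

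Every row of the list that names a repeat was classed as intron or intergenic (489 of 489). By the list's own classes, members therefore cannot be promoter or exon summits, although some lay close to a RefSeq start. Within that limit, 96 members were intronic and 100 intergenic, an intronic share of 49.0% (Wilson interval 42.1 to 55.9). Summits with no repeat name gave 50.8% (47.3 to 54.2), and those in LTR and DNA transposons 27.8% (22.2 to 34.1), an interval below that of the members. MIR had 20 of 32 intronic, L1 41 of 89, L2 24 of 51 and Alu 6 of 16. Few of the intronic members lay in a first intron, which is not a measure of distance to the TSS. Of the 96 intronic members 22 were in the first intron of the annotated transcript (22.9%, 15.6 to 32.3), against 190 of 406 summits with no repeat name (46.8%, 42.0 to 51.7), intervals that did not overlap. LTR and DNA transposon summits stood between them with 20 of 60 (33.3%, 22.7 to 45.9).

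Distance to the nearest TSS was 30664.5 bp at the median and 11377.5 and 65750 bp at the quartiles. The share within 10 kb was 21.9% (43 of 196, interval 16.7 to 28.2), against 31.1% (28.0 to 34.4) of summits with no repeat name and 18.1% (13.5 to 23.7) of LTR and DNA transposon summits. Beyond 100 kb lay 33 members (16.8%, 12.2 to 22.7), 14.8% (12.5 to 17.4) of summits with no repeat name and 29.2% (23.5 to 35.6) of LTR and DNA transposon summits. Few members had a neighbour in the list. Only 6 of 196 had another summit of the list within 10 kb (3.06%, 1.41 to 6.52). This compares with 10.2% (8.33 to 12.5) of those with no repeat name and 8.80% (5.70 to 13.3) of those in LTR and DNA transposons. The interval of the members overlapped the latter but not the former. Some members fell just beyond the limit, such as those nearest to CALCOCO2 (10053 bp) and KPNB1 (10183 bp), and no other limit was tried.

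**Figure D5:**
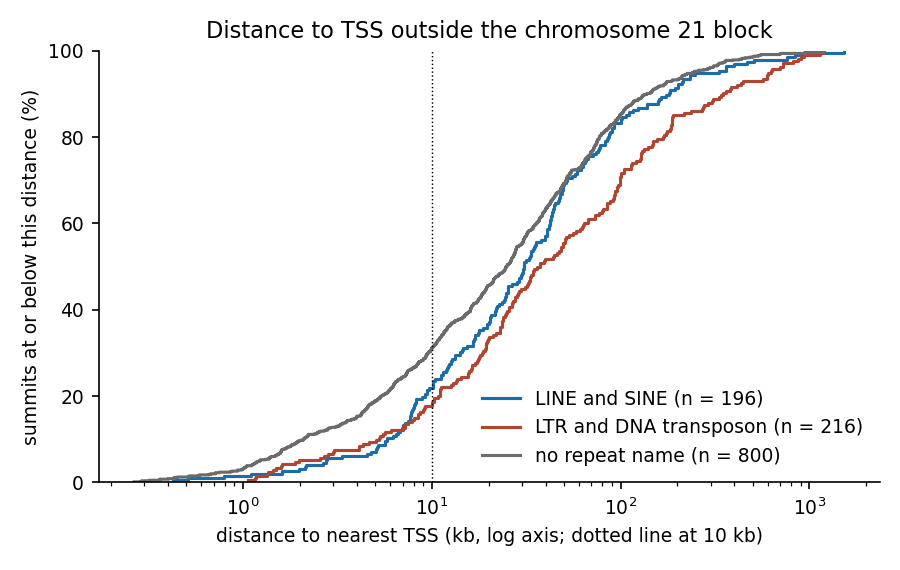
Lines give the share of summits (vertical axis, %) at or below each distance to the nearest TSS (horizontal log axis, kb) for 196 LINE and SINE summits, 216 LTR and DNA transposon summits and 800 summits with no repeat name, all outside the chromosome 21 block. At the dotted line at 10 kb the LINE and SINE line stands at 21.9%, below the 31.1% of summits with no repeat name.

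By family, 13 of 51 L2, 14 of 89 L1, 7 of 32 MIR, 5 of 16 Alu and 4 of 7 CR1 summits lay within 10 kb. By the distances in the list, 3 members were within 1 kb of the TSS, all in the first intron. They were a CR1_Mam copy 790 bp from the TSS of DIAPH2-AS1 (86.8) at chromosome X position 97563745, a MIR3 copy at 511 bp in CALCOCO2, an autophagy receptor gene (37.4), and an L2a copy at 425 bp in IKBKG, which encodes the regulatory subunit of the IKK complex (12.1). The count depends on which starts are used. With RefSeq starts instead, 7 members were within 1 kb. The table of these starts held none on chromosome 8, so members there could not be counted. These 7 included the CALCOCO2 and IKBKG summits and both summits whose sequence is printed above, but not the DIAPH2-AS1 summit. The RefSeq table had no start of DIAPH2-AS1 near that summit, and the nearest it gave was that of ERVFC1 at -278001 bp. This distance reflects a start missing from the table. The rest of the 7 were an L1MEd summit (70.1) at -481 bp from LINC01765, a MIR3 summit (32.2) at 376 bp from LOC105370906 and a HAL1 summit (36.1) at 963 bp from LOC105375980. At the other end, by the distances in the list, a MIR summit (14.4) lay 1528751 bp from MIR4735, and L1MA4A summits lay 937094 bp from CDH18 (27.0) and 836291 bp from LINC01052 (13.4). The RefSeq table has closer starts for all 3, at -764023 bp for the MIR4735 summit, -23230 bp for the CDH18 summit and 338722 bp for the LINC01052 summit.

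The 196 members had 193 nearest genes, and 151 of the summits were nearest to protein-coding genes, 39 to non-coding RNA genes and 6 to pseudogenes. For 29 of the 95 intronic members whose transcript was matched, the gene that holds the summit was not the nearest by TSS. Of 288 genes in 8 lists, covering interferon-stimulated genes, MHC class I presentation, interferon signalling, cell death, retinoic acid response, myeloid differentiation, cytokines and innate sensing, 5 were the nearest gene or the holder of a member. This is 5 of the 196 members (2.55%, 1.09 to 5.83), against 8.09% (6.94 to 9.43) of all summits outside the block (7.55% with it). Also outside the block, it was 5.00% (3.69 to 6.74) of those with no repeat name and 1.39% (0.473 to 4.00) of those in LTR and DNA transposons. The interval of the members overlapped the last 2 intervals, but not that of all summits. By nearest gene alone, 4 of these 288 were that of a member and 113 that of a summit of any kind. The interferon-stimulated list gave 2 of 73 genes, where 48 were nearest to any summit. Interferon signalling, by a holder only, and cell death gave 1 of 31 each, where 13 of each were nearest to any summit. Innate sensing gave 1 of 29, where 7 were. MHC class I presentation gave none of 22, where 14 were nearest to any summit. Retinoic acid response, myeloid differentiation and cytokine genes gave none of 24, 42 and 36, where 7, 4 and 7 were. Summits of any kind number 1986 and include 539 within 1 kb of a TSS, whereas members cannot be promoter summits by the list's classes. These counts per list therefore do not compare sets of like size or place.

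The strongest of the 5 was the L1MB2 summit in NOD1, a sensor of bacterial peptidoglycan, with a score of 96.5 at chromosome 7 position 30445977, in intron 9 of 13 and 32800 bp from the TSS. At the TSS of NOD1 the list has 2 more summits, with lower scores of 44.0 at -771 bp and 18.9 at -78 bp. IRF2, an IRF that binds the same DNA element as IRF1, held the MIR3 summit with a score of 94.0 at chromosome 4 position 184417404. The list assigns this summit to LINC02362, 35098 bp away. CASP5, an inflammatory caspase gene, held an L2a summit (39.6) in intron 3 of 7 at chromosome 11 position 105000977. TRIM14, an antiviral signalling adaptor gene, was nearest to an L2c summit (35.5) at chromosome 9 position 98129537, which lies in intron 8 of 11 of its neighbour CORO2A, 10184 bp upstream. The TSS of TRIM14 had its own summit, of similar score (41.0). GBP1, an interferon-induced GTPase gene, was nearest to an intergenic L1M4b summit (30.7) at chromosome 1 position 89070116, at -4756 bp.

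A further summit within 1 kb of the TSS of the same nearest gene was found for 4 of the 196 members (2.04%, 0.796 to 5.13), against 5.75% (4.34 to 7.58) of summits with no repeat name and 3.24% (1.58 to 6.54) of those in LTR and DNA transposons. The 4 were the NOD1 and TRIM14 summits, a MIR1_Amn summit (18.7) in MAST3 assigned to the cytokine receptor gene IL12RB1, and an L1MB2 summit (17.2) in KPNB1, which encodes an importin. At IL12RB1 the TSS summit scored 54.1 and at KPNB1 13.8.

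Only TLE3, BFSP2 and SYT15 were the nearest gene of 2 members outside the block. In BFSP2, a lens filament gene, an L2a summit (25.7) and an AluJo summit (26.4) lay 273 bp apart in the first intron. For SYT15, a synaptotagmin gene, L1ME2 summits (36.2 and 29.6) lay at chromosome 10 positions 46600693 and 47741068, at 21677 and 21725 bp from a TSS listed under this gene. By the list, the same repeat name lay at nearly the same offset in both places, a pattern also seen between the ribosomal DNA copies. Whether these 2 SYT15 summits share reads was not tested. The RefSeq table has closer starts for them, LOC105378289 at -1508 bp and LOC102724593 at -2631 bp. A further L1ME2 summit on chromosome 10 (22.1) lay at -24291 bp from NUTM2A. Apart from the BFSP2 pair, the members with another summit of the list under 1 kb away were an L1M5 copy nearest to NACC2 (31.6, 220 bp away) and an L1MB2 copy in ZNF148 (19.6, 228 bp away).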

How the data were processed

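IRF1 ChIP-seq was measured in 2 libraries of NB4 cells, 1 per group, and 1 deposited list of summits, named for the retinoic acid library per the file headers, was used. The submitters' processing notes name Bowtie2 2.2.9, MACS 1.4.2 and the hg38 build. Annotation used annotatePeaks.pl of HOMER with hg38, per the file headers. The deposited peak score is the authors' value on an unstated scale, and the deposited signed distance to the TSS is in bp, per the file headers. Which library served as background in peak calling, the threshold, the treatment of multiply mapped reads and the depth are each not given in the sources used here, and all of these decide which summits are listed.

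Members were the rows with class LINE or SINE, counted with pandas 2.3.3. Medians have exact binomial and shares Wilson 95% intervals (scipy 1.17.1). The chromosome 21 block is the chain of summits at most 100 kb apart with the most summits. Genes were matched to RefSeq GRCh38.p14 by Entrez identifier (226 of 226) and by transcript (111 of 112 intronic members), and current symbols are used. As a check of the build, summits within 1 kb of a TSS were used, of which 391 of 539 had their nearest gene in the table of RefSeq starts. For 317 of these 391, the RefSeq start of that gene lay within 1 kb of the one implied by the list. Promoter sequences are from RefSeq, and 2 members lay in a window. The table of promoter windows and their starts held none on chromosome 8 and lacked the starts of some other genes. The planned motif search 150 bases either side of each summit could not be made without a genome sequence. The functions were tested on simulated data. The members, lists and comparisons were chosen with earlier results of these data known.

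Summits named were the 10 highest LINE and 6 highest SINE members, the highest of each family and of each name with 4 or more members, members within 1 kb of a TSS or of another summit, those at list genes, the 3 farthest from a TSS and genes with 2 members. Alternatives were the upper part of the scores, omission of the block, merging of summits under 200 bp apart, classes with a question mark, TSS limits of 5 and 50 kb, and 1 summit per gene.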

Additional observations from a re-analysis of the deposited data

How the results depend on the processing

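No paired analysis was possible because there was only 1 library in each group, and leaving out a replicate was likewise impossible. Omitting the chromosome 21 block was chosen for the family counts and medians after seeing the data. Keeping only scores at or above the median of the list left 102 members by construction (43 L1, 29 L2, 16 MIR, 10 Alu and 3 CR1), with a median score of 36.4. Without the block the Alu count fell from 44 to 16 and the Alu median was 24.9 instead of 19.4, while 1 summit per nearest gene gave an Alu median of 22.7. Within 5 kb of a TSS lay 10.2% and within 50 kb 73.0% of members, against 24.3% within 10 kb, as the limit sets. By RefSeq starts, an alternative chosen after seeing the data, 7 instead of 3 members lay within 1 kb of a TSS. Those starts cover no gene of chromosome 8. Merging left 222 members, 40 of them Alu, and no class carried a question mark. Counts of L1, L2, MIR and CR1 stayed within 1.5 times and their medians within their intervals under merging, omission of the block or 1 summit per gene, as far as each was run. The intronic share stayed between 49.0% and 51.0%. The motif alternatives were not run as planned, but the match in the LOC105374837 window lay within 50 bases of its summit. Depth is unknown here, so a repeat without a summit does not show absence of binding.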
